A study of Mus musculus with 6 samples.

Results

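The genes described here are 53 factors of ribosome biogenesis and of RNA polymerase I (Pol I), most of which act in the nucleolus. They were chosen by name, with earlier results of these data known, and their RNA levels were compared between leukemia cells of vehicle-treated and DS-5272-treated mice. Of the 53 members, 51 had an entry of their own in the expression table, and all 51 were among the 11130 entries tested, called genes below although 379 of them join several names, because their mean over the 6 samples was at least 1 FPKM (fragments normalized for transcript length and sequencing depth). The other 2 members, Imp4 and Ebna1bp2, were measured only in entries that join them to a second gene name, and are given apart. None of the 51 was near the 1 FPKM limit, as their mean levels ran from 8.14 FPKM for Utp20 to 142 FPKM for Ncl, with a median of 29.6 FPKM.

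RNA-Seq was done on GFP+ MLL-AF9 leukemia cells collected from the bone marrow of leukemic mice, with 3 samples from mice that received vehicle and 3 from mice that received DS-5272, an inhibitor of the binding of Mdm2 to p53, by mouth at 80 mg/kg. Cells were taken 24 h later in both groups. The strain was C57BL/6J, and the age of the mice was not given in the sources used here. All 6 samples carry the same transgene: MLL-AF9 was introduced by retrovirus into c-Kit+ bone marrow progenitors, and the resulting leukemia was passed through several recipients before the cells were injected into non-irradiated mice. The samples therefore model a serially passaged leukemia in separate hosts, not independent leukemias. The table gives no read counts, and the depth estimated from its lowest values was about 43100000, 34800000 and 38200000 fragments for the vehicle mice and 32100000, 28100000 and 23200000 for the treated mice, so the treated libraries were the shallower ones. Values are given throughout in the order of replicates 1, 2 and 3.

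Ribosome production begins in the nucleolus, where Pol I copies the rDNA repeats into a long precursor RNA. Small nucleolar RNA-protein particles (snoRNPs) of the box C/D and box H/ACA classes guide ribose methylation and pseudouridylation of this RNA, the small-subunit processome folds and cuts it, and separate sets of factors mature and export the small (40S) and large (60S) subunits. The pathway is known as a target of Myc and is most active in proliferating cells, and when it is disturbed free Rpl5 and Rpl11 can bind Mdm2 and so stabilise p53.

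The RNA of most members in each of the 7 roles was lower after DS-5272. Of the 51 members tested, 46 (90.2%) were lower in the DS-5272 group at an adjusted p under 0.05 (limma, Benjamini-Hochberg over all 11130 genes) and 0 were higher, while 22.0% of all tested genes were lower and 24.2% were higher. At an unadjusted p under 0.05, limma gave 49 members lower and 0 higher, and 26.1% of all genes lower and 29.5% higher. The fitted log2 fold change, taken on log2(FPKM + 1) as DS-5272 minus vehicle, was negative for all 51 members, with a median of -0.87, quartiles of -1.03 and -0.61, and a range from -1.47 for Utp20 to -0.20 for Ubtf. The median over all tested genes was 0.04. In 49 members every DS-5272 sample was below every vehicle sample, where 29.7% of all tested genes separated in this direction, and Nmd3 and Gtpbp4 were the exceptions. The 5 members that did not pass were Nmd3, Rrp9, Polr1e, Ubtf and Gtpbp4. The first 3 of these passed with the replicate block, which raised the count to 49, with 24.9% of all genes lower. The block fits the replicate number beside the treatment. It was chosen from these same data, with no batch in the labels, so calls made with it are not independent support. The members' summed level was 2390, 2566 and 2517 FPKM with vehicle, and 1412, 1692 and 1039 FPKM with DS-5272. As a share of all FPKM this was 0.537%, 0.521% and 0.502% against 0.283%, 0.292% and 0.157%. With vehicle replicate 2 left out the count of lower members was 22, where 12.5% of all genes were lower, and with vehicle replicate 3 left out it was 25, where 13.4% were, while the fold changes of all 51 remained negative in both cases. When each sample was rescaled to a common total, the median of all genes moved to -0.20, that of the members to -1.11, and 49 members were lower, as were 32.0% of all genes. The same rescaling changed the share of higher genes among all genes called from 52.4% to 32.4%.

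In bulk RNA, fewer cells with a high level of these RNAs and less of them per cell cannot be told apart, and markers of cell state and of other cell types moved with the groups. The 8 markers of mature granulocytes, all measured, summed to 406, 1815 and 2458 FPKM with vehicle and to 4696, 11965 and 19987 FPKM with DS-5272, with Lcn2 the most abundant over the 6 samples (S100a9 with DS-5272) and 6 of 8 higher by limma, or 8 of 8 with the replicate block. Of 8 markers of the leukemia, 6 had their own entry, with sums of 566, 531 and 736 against 860, 1039 and 1528 FPKM, and Itgam was the most abundant over the 6 samples (Mpo with vehicle). Among them Mpo and Kit, which mark immature myeloid cells, were lower, Itgam, Ptprc and Csf1r were higher, and Meis1 did not pass. Mpo stood at 218, 140 and 325 FPKM with vehicle and at 3.77, 12.2 and 3.25 FPKM with DS-5272. The 6 measured bone marrow macrophage markers summed to 43.4, 68 and 92.1 against 358, 108 and 125 FPKM, with Vcam1 the most abundant. Vcam1 was at 36.6, 64.1 and 82.8 against 143, 74.8 and 85.7 FPKM, overlapped and did not pass by limma (adjusted p = 0.125). The paper reports more VCAM-1 on c-Kit+ leukemia cells after DS-5272. By limma 3 of 6 were higher, or 4 of 6 with the replicate block, which added Cd5l. The 3 were C1qa, C1qb and C1qc, with treated means at 1238%, 1362% and 1525% of the vehicle means. Of the erythroid markers, Hba-a1 was the most abundant, at 2.39, 1.05 and 0.598 against 84.2, 14.7 and 7.07 FPKM, and Hba-a2 was at 0.841, 0.259 and 0.592 against 55.2, 10.6 and 4.47 FPKM, both higher by limma. Alas2 did not pass, and Klf1 was under 1 FPKM in all 6 samples. Stroma and endothelium markers summed to 60, 31.1 and 29 against 112, 73.3 and 81.1 FPKM, nearly all from Pecam1, with Cxcl12, Lepr and Cdh5 under 1 FPKM throughout. Pecam1 was higher by limma (adjusted p = 0.025). With the replicate block Col1a1 (adjusted p = 0.004) and the megakaryocyte marker Itga2b (0.025) were also higher by limma. Megakaryocyte markers, low in both groups, summed to 1.82, 1.68 and 2.08 against 6.95, 5.1 and 4.32 FPKM, with Itga2b the most abundant over the 6 samples (Gp9 with vehicle and Pf4 with DS-5272). T cell markers summed to 0.396, 0.279 and 0.386 against 3.47, 0.6 and 1.25 FPKM, with Cd4 the most abundant (3.28 FPKM in DS-5272 replicate 1), so that both of these sums were higher in every treated mouse. NK cell markers summed to 1.49, 1.28 and 2.18 against 1.92, 1.68 and 2.77 FPKM and overlapped, with Nkg7 the most abundant. Each treated sum was above the vehicle sum of the same replicate number. The B cell markers Cd79a, Ms4a1 and Pax5 and the T and NK cell markers Cd3d, Cd3e, Cd3g, Cd8a, Ncr1, Klrb1c, Eomes and Gzmb were under 1 FPKM in every sample. Cd79b, another B cell marker, was at 4.67, 4.79 and 3.9 against 3.88, 3.56 and 3.15 FPKM and did not pass (adjusted p = 0.121). The part of these markers, and of the lower depth of the treated libraries, in the members' result was not tested.

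**Figure D1:**
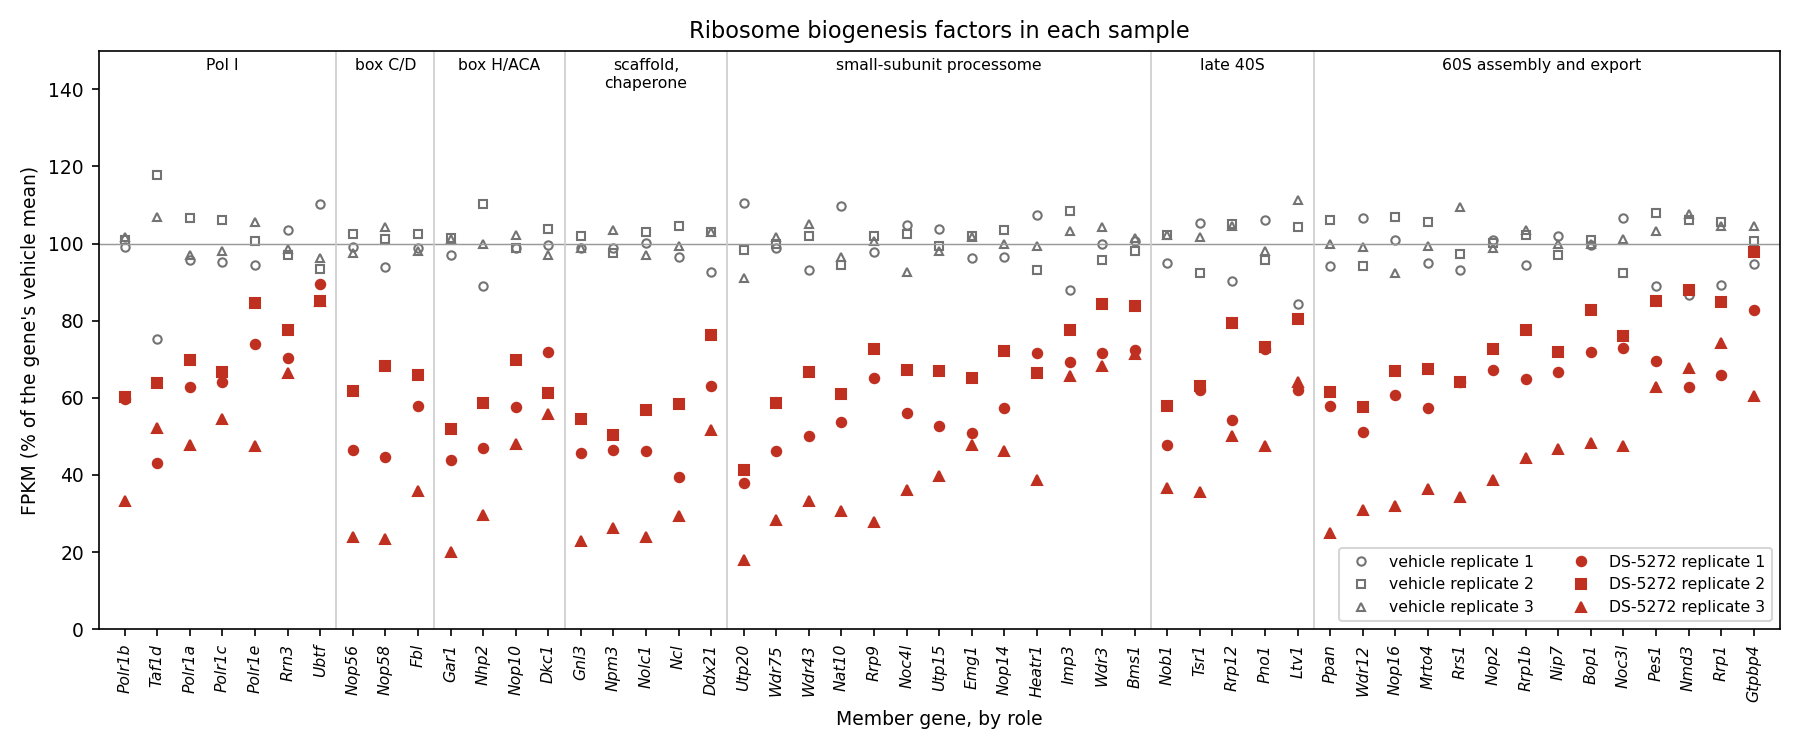
FPKM of each of the 51 tested members in each sample (vertical axis), as a percent of that gene's vehicle mean, with genes grouped by role along the horizontal axis, open grey symbols for vehicle and filled red symbols for DS-5272. The medians over members in DS-5272 replicates 1, 2 and 3 were 60.7%, 67.2% and 39.7%, and replicate 3 (triangles) was the lowest treated sample for 47 of 51 members.

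Among the 7 Pol I subunits and initiation factors, 5 were lower, with a median log2 fold change of -0.67. Polr1b, the second-largest Pol I subunit, was at 11.2, 11.4 and 11.5 FPKM in the vehicle mice and at 6.77, 6.82 and 3.77 FPKM in the treated mice. Its log2 fold change was -0.90 (SE 0.20, adjusted p = 0.013). The vehicle samples lay close together, and the third treated mouse was the furthest below them. Taf1d, a subunit of the promoter selectivity factor SL1, was the most abundant of the group, at 58.1, 91 and 82.5 FPKM with vehicle and 33.3, 49.3 and 40.2 FPKM with DS-5272 (log2 fold change -0.89, SE 0.21, adjusted p = 0.015). Its vehicle samples were spread more widely than those of any other member, and the groups still did not overlap. Polr1a, the largest subunit, stood at 19.9, 22.2 and 20.2 against 13.1, 14.5 and 9.93 FPKM (log2 fold change -0.70, SE 0.15, adjusted p = 0.01). Polr1c, a subunit shared with RNA polymerase III, and Rrn3, the factor that makes Pol I competent to initiate, fell by 0.67 and by 0.46 on the log2 scale (adjusted p = 0.0052 and 0.01). Ubtf, the factor that keeps rDNA chromatin open, had the smallest difference of all members, at 41.7, 35.3 and 36.4 FPKM against 33.9, 32.2 and 32.2 FPKM, and its log2 fold change of -0.20 (SE 0.10, 95% interval -0.43 to 0.04) did not pass (adjusted p = 0.141). Polr1e, a further Pol I subunit, was at 13.6, 14.5 and 15.2 against 10.7, 12.2 and 6.87 FPKM, with no overlap between the groups. Its log2 fold change of -0.53 gave an adjusted p of 0.063, and 0.049 with the replicate block. Taf1d no longer passed without vehicle replicate 2 or without vehicle replicate 3 (adjusted p = 0.055 and 0.052).

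The 3 members for core proteins of box C/D snoRNPs were all lower, with a median log2 fold change of -1.24. A further core protein gene, Nhp2l1, is counted in the wider list below and had a log2 fold change of -0.68 (adjusted p = 0.012). Nop56 was at 116, 120 and 114 FPKM in the vehicle mice and at 54.4, 72.2 and 27.9 FPKM in the treated mice, a log2 fold change of -1.27 (SE 0.32, adjusted p = 0.018). Nop58, its partner in the particle, was at 92.9, 100 and 103 against 44.1, 67.5 and 23.2 FPKM (log2 fold change -1.24, SE 0.35, adjusted p = 0.026). In both genes the treated mice differed from one another far more than the vehicle mice did. Fbl, the methyltransferase of the particle, was at 156, 162 and 155 FPKM with vehicle and 91.2, 104 and 56.4 FPKM with DS-5272 (log2 fold change -0.95, SE 0.22, adjusted p = 0.014). None of the 3 genes overlapped between groups. Without vehicle replicate 2 none of them passed (adjusted p = 0.06 for Nop56, 0.076 for Nop58 and 0.053 for Fbl), without vehicle replicate 1 Nop56 and Nop58 did not (0.052 and 0.062), without vehicle replicate 3 Nop58 did not (0.071), nor did it with no filter (0.053).

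All 4 core proteins of box H/ACA snoRNPs were lower, with a median log2 fold change of -0.98. Gar1 had the second-largest fall of all members, from 47.2, 49.3 and 49.2 FPKM to 21.3, 25.2 and 9.66 FPKM (log2 fold change -1.43, SE 0.32, adjusted p = 0.012). Nhp2, the most abundant of the 4 over the 6 samples although Dkc1 was above it with DS-5272, was at 94.3, 117 and 106 against 49.7, 61.9 and 31.3 FPKM (log2 fold change -1.18, SE 0.24, adjusted p = 0.0097). In both genes DS-5272 replicate 3 was the lowest sample. Nop10 fell by 0.77 on the log2 scale (adjusted p = 0.0071). Dkc1, the pseudouridine synthase of the particle and a component of telomerase, had the smallest fall of the group, from 85.6, 89.2 and 83.4 FPKM to 62, 52.8 and 47.9 FPKM (log2 fold change -0.66, SE 0.12, adjusted p = 0.0063), and its treated samples were more alike than those of Gar1.

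The 5 nucleolar scaffold, chaperone and helicase genes were all lower and had the most negative median of the 7 roles, -1.30. Ncl, encoding nucleolin and the most abundant member, was at 192, 208 and 198 FPKM with vehicle and at 78.7, 116 and 58.4 FPKM with DS-5272 (log2 fold change -1.29, SE 0.24, adjusted p = 0.007). Gnl3, encoding nucleostemin, was at 42.3, 43.6 and 42.3 against 19.5, 23.3 and 9.81 FPKM (log2 fold change -1.32, SE 0.29, adjusted p = 0.011). Both groups of samples stood well apart for these genes. Npm3, a nucleoplasmin-family chaperone, was at 78.4, 77.4 and 82.1 against 37, 40 and 20.8 FPKM (log2 fold change -1.31, SE 0.24, adjusted p = 0.0067). Nolc1, a chaperone of snoRNPs, was at 69.8, 71.8 and 67.6 against 32.1, 39.7 and 16.7 FPKM (log2 fold change -1.30, SE 0.29, adjusted p = 0.013). These 4 genes had nearly the same fold change. The RNA helicase gene Ddx21 had the smallest fall of the 5, from 93.5, 104 and 104 FPKM to 63.3, 76.8 and 52 FPKM (log2 fold change -0.66, SE 0.15, adjusted p = 0.014), and did not pass without vehicle replicate 2 or without vehicle replicate 3 (adjusted p = 0.057 and 0.052).

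Of the 14 small-subunit processome members, 13 were tested and 12 were lower, with a median log2 fold change of -0.87. Without vehicle replicate 1, 2 or 3 the count was 9, 7 and 8, where 15.0%, 12.5% and 13.4% of all genes were lower. Utp20, a large scaffold protein of the processome, was the member with the largest fall, from 13.6, 12.1 and 11.2 FPKM to 4.67, 5.07 and 2.2 FPKM (log2 fold change -1.47, SE 0.25, adjusted p = 0.0057). Treated levels were 38%, 41.2% and 17.9% of the vehicle mean. Wdr75 and Wdr43 encode processome proteins that also act in Pol I transcription. Wdr75 was at 24.4, 24.7 and 25.1 against 11.4, 14.5 and 6.97 FPKM (log2 fold change -1.16, SE 0.23, adjusted p = 0.009), and Wdr43 at 42.8, 46.9 and 48.3 against 23, 30.7 and 15.3 FPKM (log2 fold change -1.02, SE 0.23, adjusted p = 0.013). Emg1, an rRNA methyltransferase and the most abundant of the group, was at 68.8, 72.9 and 72.7 against 36.3, 46.6 and 34.1 FPKM (log2 fold change -0.87, SE 0.13), and had the lowest adjusted p of all members (0.0044). The GTPase gene Bms1 had the smallest fall, from 30.2, 29.4 and 30.4 FPKM to 21.7, 25.2 and 21.4 FPKM (log2 fold change -0.39, SE 0.10, adjusted p = 0.019), and did not pass when vehicle replicate 1, 2 or 3 was left out (adjusted p = 0.059, 0.065 and 0.077). Nat10, Noc4l, Utp15, Nop14, Heatr1, Imp3 and Wdr3 lay between, with log2 fold changes from -1.02 to -0.40. Of these, Heatr1 and Wdr3 did not pass without vehicle replicate 1, 2 or 3 (adjusted p from 0.066 to 0.094), Imp3 without vehicle replicate 2 or 3 (0.073 and 0.068), Noc4l without vehicle replicate 2 (0.052) and Heatr1 with no filter (0.056). Rrp9, a protein of the U3 snoRNP, was at 35.4, 36.9 and 36.4 against 23.6, 26.3 and 10 FPKM. Its log2 fold change of -0.93 did not pass (SE 0.33, adjusted p = 0.055), with the third treated mouse far below the others, and passed with the replicate block (adjusted p = 0.027). The entry that joins Imp4 with D1Ertd448e was at 30.1, 31.2 and 31.3 against 23.3, 25.1 and 19.8 FPKM, and in the fit that counted joined entries its log2 fold change was -0.43 (SE 0.11, adjusted p = 0.019).

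The 5 late 40S factors were all lower, with a median log2 fold change of -0.68. Nob1, the endonuclease that makes the last cut of the small-subunit rRNA, was at 28.6, 30.8 and 30.8 against 14.4, 17.4 and 11 FPKM (log2 fold change -1.05, SE 0.16, adjusted p = 0.0045). Tsr1, which keeps immature subunits from initiating, was at 17.8, 15.6 and 17.2 against 10.4, 10.6 and 5.99 FPKM (log2 fold change -0.87, SE 0.21, adjusted p = 0.015). Rrp12, an export factor, was at 15.6, 18.2 and 18.1 against 9.39, 13.7 and 8.64 FPKM (log2 fold change -0.68, SE 0.17, adjusted p = 0.019). The treated samples of all 3 genes lay below their vehicle samples. Ltv1, the most abundant and the least changed of the 5, was at 41.8, 51.7 and 55.2 against 30.7, 39.8 and 31.7 FPKM (log2 fold change -0.53, SE 0.15, adjusted p = 0.028), so that its groups came within a few FPKM of each other. Pno1 fell by 0.64 on the log2 scale, and did not pass when vehicle replicate 1, 2 or 3 was left out (adjusted p = 0.076, 0.067 and 0.068). Ltv1 did not pass without DS-5272 replicate 1 or 3, or without vehicle replicate 2 or 3 (adjusted p = 0.064, 0.069, 0.096 and 0.099). Rrp12 did not without vehicle replicate 2 or 3 (0.071 and 0.067), nor Tsr1 without vehicle replicate 1 or 3 (0.052 and 0.051).

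Of the 15 members of 60S assembly and export, 14 were tested and 12 were lower, with a median log2 fold change of -0.65. This count was 5 with no filter, where 13.7% of all genes were lower. It was 4, 1 and 2 without vehicle replicate 1, 2 or 3, where 15.0%, 12.5% and 13.4% of all genes were lower. Of 14 tested, the counts without vehicle replicate 2 or 3 were near those shares. Ppan was at 56.2, 63.2 and 59.5 against 34.6, 36.6 and 14.9 FPKM (log2 fold change -1.13, SE 0.32, adjusted p = 0.028). Wdr12 was at 24.1, 21.3 and 22.4 against 11.6, 13 and 6.99 FPKM (log2 fold change -1.07, SE 0.21, adjusted p = 0.0085). Wdr12 forms the PeBoW complex with Pes1 and Bop1, which fell by 0.46 and by 0.58 on the log2 scale (adjusted p = 0.035 and 0.044). Neither passed with no filter (0.052 and 0.074), nor did Bop1 with median-ratio scaling (0.053). Both also failed without DS-5272 replicate 1 (0.071 and 0.057), vehicle replicate 2 (0.123 and 0.115) or vehicle replicate 3 (0.109 and 0.106), Pes1 without DS-5272 replicate 3 (0.078) and Bop1 without vehicle replicate 1 (0.1). Nop16 was at 29.5, 31.2 and 27 against 17.8, 19.6 and 9.37 FPKM (log2 fold change -0.93, SE 0.26, adjusted p = 0.025). Rrp1, the most abundant of the group, was at 87.2, 103 and 102 against 64.2, 82.8 and 72.3 FPKM (log2 fold change -0.42, SE 0.13, adjusted p = 0.038), and its highest treated sample nearly reached its lowest vehicle sample. Mrto4, Rrs1, Nop2, Rrp1b, Nip7 and Noc3l had log2 fold changes from -0.91 to -0.56. Of these, Mrto4 did not pass without vehicle replicate 2 (0.056), and the other 5 did not without vehicle replicate 1, 2 or 3 (adjusted p from 0.052 to 0.102). Nop2, Rrp1b and Noc3l also failed with no filter (0.056, 0.053 and 0.069). The GTPase gene Gtpbp4 was at 47.2, 50.2 and 52.2 against 41.3, 48.8 and 30.2 FPKM, with overlapping groups and a log2 fold change of -0.33 that did not pass (95% interval -0.75 to 0.08, adjusted p = 0.158). Nmd3, the adaptor for nuclear export of the large subunit, also overlapped, at 29.7, 36.4 and 36.9 against 21.5, 30.2 and 23.3 FPKM (log2 fold change -0.45, adjusted p = 0.051, and 0.018 with the replicate block). The entry that joins Ebna1bp2 with D4Ertd617e was at 36.1, 37.9 and 37.8 against 23.9, 27.5 and 17.2 FPKM, with a log2 fold change of -0.71 (SE 0.17, adjusted p = 0.015) in the fit that counted joined entries. Ppan and Nop16 did not pass when vehicle replicate 1, 2 or 3 was left out (adjusted p = 0.065, 0.085 and 0.072 for Ppan, and 0.067, 0.081 and 0.056 for Nop16), nor did Ppan with no filter (0.056). Rrp1 did not pass without DS-5272 replicate 1 or 3 or without vehicle replicate 2 or 3 (0.075, 0.073, 0.131 and 0.125), nor with no filter (0.052).

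**Figure D2:**
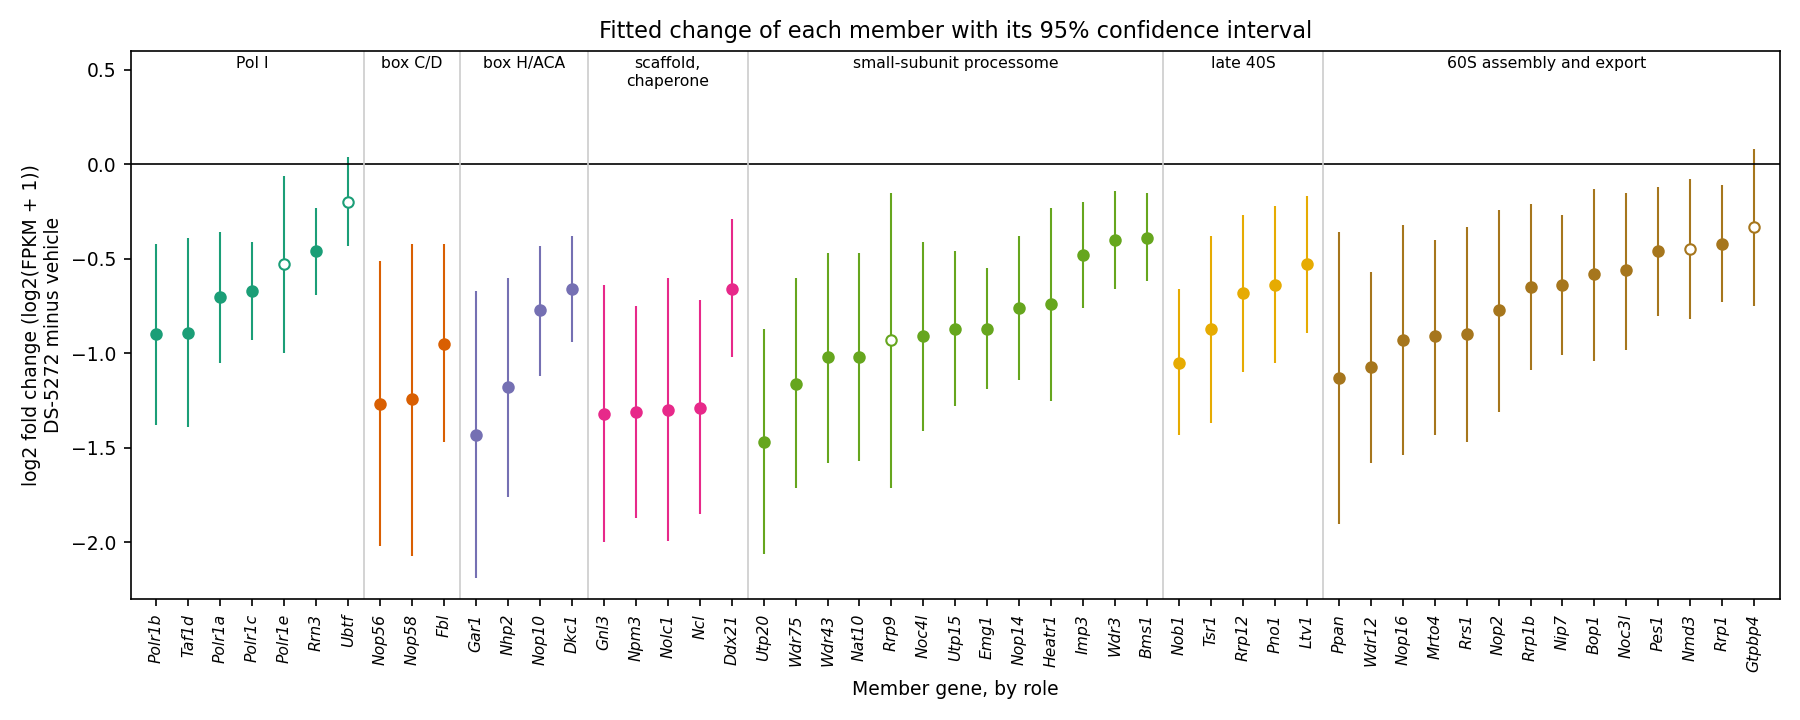
Log2 fold change of each tested member on log2(FPKM + 1), DS-5272 minus vehicle (vertical axis), by role along the horizontal axis, with bars for the 95% confidence interval from limma and colors for roles. Filled points passed an adjusted p under 0.05 (46 of 51), open points did not, and all points lie below 0, with the medians by role running from -0.65 for 60S assembly to -1.30 for the scaffold and chaperone genes.

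The treated mice differed among themselves. In DS-5272 replicates 1, 2 and 3 the median member was at 60.7%, 67.2% and 39.7% of its vehicle mean, and 13, 1 and 37 of the 51 members were under 50% of it. Replicate 3 was the lowest treated sample for 47 members and replicate 2 the highest for 48. The full order, replicate 3 below replicate 1 below replicate 2, held for 44 members (86.3%), for 49.0% of the 2451 genes lower in the same fit, and for 13.6% of all tested genes. The 4 members whose lowest treated value was in replicate 1 were Taf1d, Rrp1, Nmd3 and Ltv1. The coefficient of variation had a median over members of 5.36% among vehicle samples and 26.8% among DS-5272 samples, and was higher with DS-5272 in 48 of 51. Over all tested genes the medians were 8.6% and 16.2%. Without DS-5272 replicate 3 the members' median log2 fold change was -0.62 and 44 were lower, as were 19.7% of all genes. Across the 51 members, the log2 vehicle level and the log2 fold change had a Pearson r of -0.24 and a Spearman rho of -0.23, a description over genes that share the same 6 libraries.

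The 6 reference genes of the p53 and Myc pathways and of proliferation give the setting in each mouse. Myc, the transcription factor named above, was at 49.5, 45.9 and 50.8 FPKM with vehicle and 30.2, 26.1 and 10.3 FPKM with DS-5272 (log2 fold change -1.23, SE 0.36, adjusted p = 0.031). Its partner gene Max was higher, at 44.9, 52.4 and 54.6 against 62.1, 73.9 and 99 FPKM (log2 fold change 0.60, SE 0.18, adjusted p = 0.034). The proliferation marker Mki67 was at 108, 106 and 102 against 14.7, 58.3 and 11.3 FPKM (log2 fold change -2.24, SE 0.55, adjusted p = 0.017), and like the members it was highest in the second treated mouse and lowest in the third. Trp53 RNA was lower, at 84.1, 63.9 and 70.8 against 41.5, 44.8 and 30 FPKM (log2 fold change -0.91, SE 0.18, adjusted p = 0.0086). The p53 targets Cdkn1a and Mdm2 varied widely between treated mice. Cdkn1a was at 14.8, 28.1 and 25.5 FPKM with vehicle and 32.3, 117 and 485 FPKM with DS-5272 (log2 fold change 2.43, SE 0.89, adjusted p = 0.061, and 0.014 with the replicate block). Mdm2 was at 27.1, 36.3 and 40 against 42.6, 78.8 and 210 FPKM (log2 fold change 1.36, SE 0.53, adjusted p = 0.073, and 0.015 with the replicate block). Both were highest in the third treated mouse, where the members were lowest, but the first treated mouse had less of both than the second while its members were also lower. The relation of these genes to the members was not tested.

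**Figure D3:**
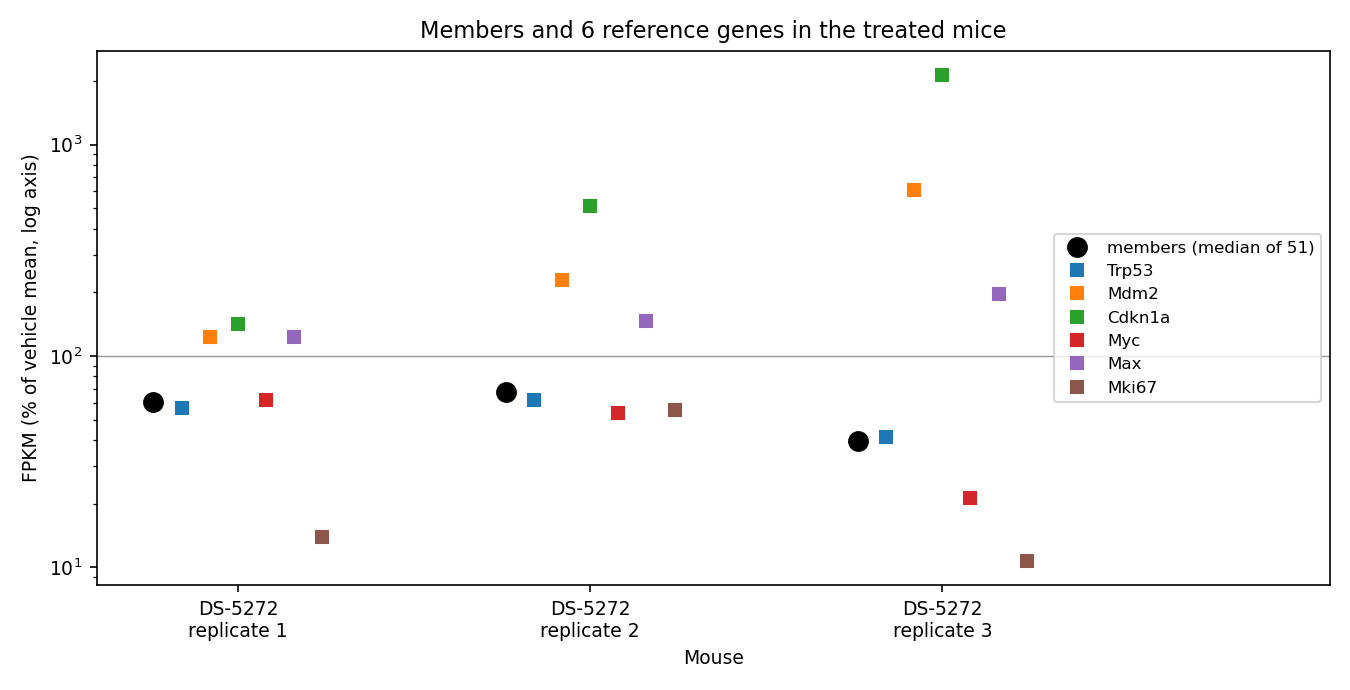
Level in each DS-5272 mouse as a percent of the vehicle mean (vertical axis, log scale) for the median of the 51 members (black) and for 6 reference genes, with 1 point per mouse. The members were at 60.7%, 67.2% and 39.7%, Mki67 at 13.9%, 55.3% and 10.7%, and Cdkn1a at 142%, 514% and 2131%.

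A wider list of 132 further symbols for ribosome biogenesis and Pol I factors gave 115 genes with a test. Of these, 76 were lower and 0 were higher by limma, where 22.0% and 24.2% of all genes were, and 83 lower and 0 higher at an unadjusted p under 0.05, where 26.1% and 29.5% were. Their median log2 fold change was -0.55. Among 14 other Pol I machinery genes 5 were lower (median -0.24), among 36 of the small-subunit processome and 40S assembly 23 (median -0.50), among 39 of 60S assembly and export 27 (median -0.64), among 10 of snoRNP assembly 8 (median -0.76), and among 16 of the RNA exosome and pre-rRNA trimming 13 (median -0.62). The 5 of the Pol I machinery were Polr2e, Polr2f, Polr2h, Twistnb and Taf1a, or 35.7% of those tested. The Polr2 genes among them encode subunits shared with RNA polymerase II. Polr1d, Cd3eap, Znrd1, Taf1b, Taf1c and Ttf1 were among those that did not pass. The largest fall of the wider list was in Exosc2, an exosome core subunit, from a mean of 29 FPKM to 9.95 FPKM (log2 fold change -1.53, adjusted p = 0.0071). Dis3, the exosome nuclease, went from 20.8 to 8.14 FPKM (log2 fold change -1.33, adjusted p = 0.0099). Pa2g4 went from 197 to 78.7 FPKM, Mybbp1a from 86.3 to 38.3 FPKM and Nle1 from 19.1 to 8.09 FPKM, with log2 fold changes of -1.41, -1.23 and -1.21 (adjusted p = 0.013, 0.013 and 0.015). Npm1, encoding nucleophosmin and named here after its values were seen, went from 1066 to 472 FPKM (log2 fold change -1.20, adjusted p = 0.0051). With the replicate block 79 were lower and 1, Zfp622, was higher, where 24.9% of all genes were lower and 30.3% higher. Without DS-5272 replicate 1 the number higher was 2, where 26.4% of all genes were higher. Without vehicle replicate 2 or 3 the number lower was 40 or 49, where 12.5% or 13.4% of all genes were lower.

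Most RNAs of the ribosomal proteins themselves did not pass in FPKM, and their count depended on the scaling. Of 79 genes listed, 76 were tested, 2 were lower and 0 were higher by limma, where 22.0% and 24.2% of all genes were, and 4 were lower and 0 higher at an unadjusted p under 0.05, where 26.1% and 29.5% were. The median log2 fold change was -0.10. Rps2 went from a mean of 1155 to 788 FPKM and Rpl14 from 786 to 562 FPKM, with log2 fold changes of -0.56 and -0.48 (adjusted p = 0.029 and 0.033). Rpl5 was at 521, 672 and 674 against 442, 548 and 563 FPKM, and Rpl11 at 1122, 1380 and 1365 against 962, 1175 and 1164 FPKM, both with overlapping groups (adjusted p = 0.218 and 0.261, and 0.025 and 0.031 with the replicate block). Rescaled to a common total, 59 of the 76 were lower, at a median of -0.37 where all genes had -0.20 and 32.0% of them were lower. The replicate block gave 20 lower and 4 higher, where 24.9% of all genes were lower and 30.3% higher. No ribosomal protein gene passed without DS-5272 replicate 3 or without vehicle replicate 2 or 3. In those fits 19.7%, 12.5% and 13.4% of all genes were lower and 20.1%, 14.6% and 16.2% higher. Without DS-5272 replicate 1, 1 ribosomal protein gene passed, where 21.9% of all genes were lower and 26.4% higher. Many ribosomal protein genes have processed pseudogenes that can share their reads, so single values are uncertain. Ribosomal protein RNA made up 15.6%, 17.3% and 17.1% of all FPKM with vehicle and 12.7%, 13.5% and 12.9% with DS-5272. The difference between this list and the members was not tested.

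**Figure D4:**
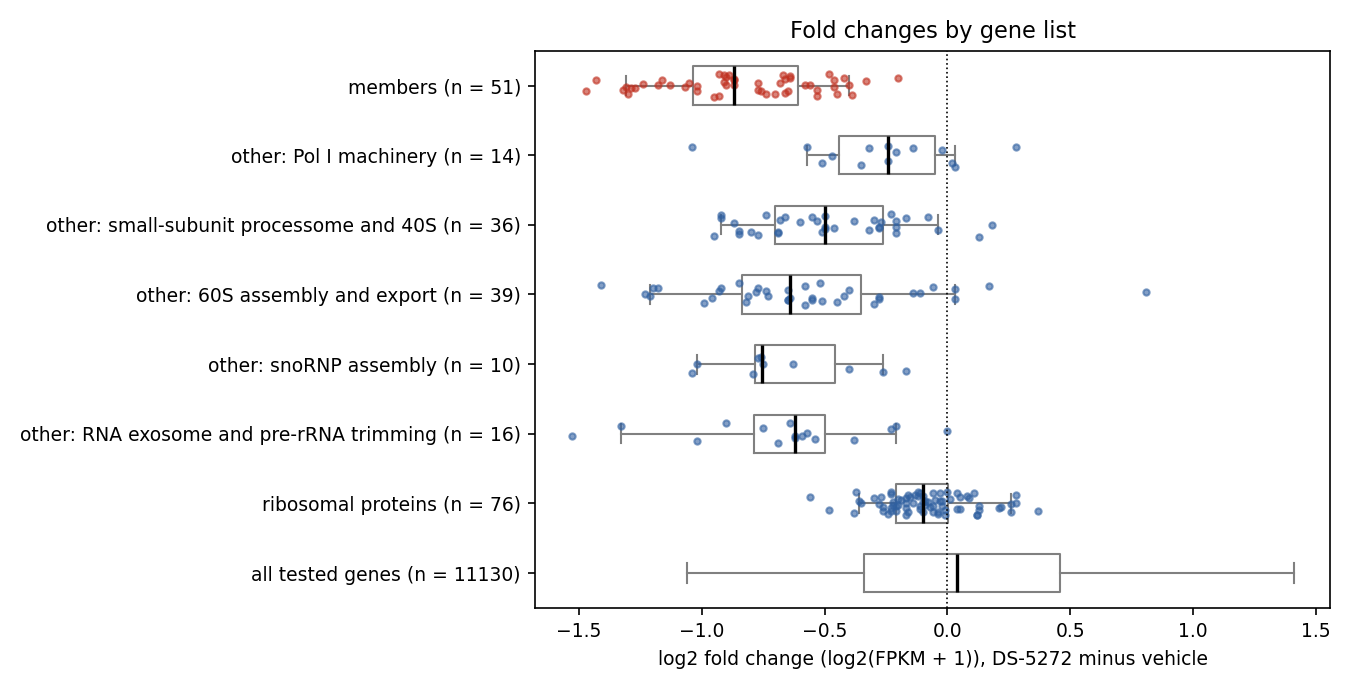
Log2 fold changes on log2(FPKM + 1), DS-5272 minus vehicle (horizontal axis), for the members (red), other factors by step, ribosomal proteins (blue) and all tested genes, with 1 point per gene for the shorter lists, boxes for quartiles, black lines for medians and whiskers for the 5th to 95th percentile. The median was -0.87 for the members, -0.10 for ribosomal proteins and 0.04 for all tested genes.

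The 53 members lie on 18 chromosomes of GRCm38, and the closest neighbours, Npm3 and Nolc1 on chromosome 19, are 326 kb apart. Exons of 24 members overlap those of another annotated gene, on the opposite strand for 21. The libraries were strand-specific, but the strand setting used in counting was not given in the sources used here, so reads of such pairs may not have been told apart. Utp20 (chr10:88746607-88826804) and Gar1 (chr3:129824912-129831396), which had the largest falls, and Nob1 (chr8:107412486-107425051), which fell most of the late 40S factors, are all on the minus strand and overlap no other exon. Nop56 overlaps Idh3b and Gnl3 overlaps Pbrm1 on the opposite strand. The 9 members Ncl, Nop56, Nop58, Dkc1, Gnl3, Taf1d, Wdr43, Ppan and Tsr1 have annotated snoRNA genes within them on the same strand. All were lower, as were 46 of the 51 members tested and 22.0% of all genes. The median log2 fold change of the 9 was -1.13. Without vehicle replicate 1, Nop56, Nop58, Ppan and Tsr1 did not pass. Without vehicle replicate 2, Nop56, Nop58, Ppan and Taf1d did not, nor did Nop58, Ppan, Tsr1 and Taf1d without vehicle replicate 3.

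Because the members moved together, their promoters were examined for shared letters. RefSeq windows on GRCm38.p6, from 250 bases before to 50 bases after the start, were given for 49 of the 53 members, and Rrs1, Rrp12, Bop1 and Fbl had none. In 44 of the 49, bases 21 to 50 after the start lay within a GENCODE transcript of the gene. The other windows, where they did not, were searched as well. Each motif was searched on both strands, in the first window of each gene. The E-box CACGTG, the motif bound by Myc with Max, was in 10 of 49 member windows (20.4%), in 10.8% of the windows of the 7456 tested genes that have one and in 7.24% of those of all 27025 genes with a RefSeq window. The 10 were Nop2, Wdr43, Pes1, Utp20, Tsr1, Ltv1, Nmd3, Rrn3, Imp4 and Pno1. In this order their log2 fold changes were -0.77, -1.02, -0.46, -1.47, -0.87, -0.53, -0.45, -0.46, -0.43 and -0.64. The median of the 51 tested members was -0.87. Nmd3 did not pass, and the value of Imp4 is from the fit that counted joined entries. The relation of the motif to the fall was not tested. GGGCGG, the GC box, was in 67.3% of member windows, 65.1% of those of tested genes and 35.9% of all, and TATAAA in 6.12%, 6.85% and 14.2%. The median share of G and C was 58.3% for members, 60.7% for tested genes and 52.7% for all. A match is a string of letters, and binding was not measured. The 100 bases before the start are printed 5′ to 3′ for the member with the largest fall in each role, and for Nop2 and Rrn3, chosen after the search because their E-box lies within those bases. Capitals mark the E-box CACGTG and the GC box GGGCGG, the latter also where it lies on the other strand and reads CCGCCC.
Nop56: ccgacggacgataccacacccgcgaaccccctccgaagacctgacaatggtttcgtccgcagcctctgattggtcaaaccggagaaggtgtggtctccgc
Gnl3: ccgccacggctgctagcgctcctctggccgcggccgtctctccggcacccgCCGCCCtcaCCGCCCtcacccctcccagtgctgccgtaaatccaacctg
Ppan: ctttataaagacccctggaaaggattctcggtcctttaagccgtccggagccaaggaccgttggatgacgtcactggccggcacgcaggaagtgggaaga
Utp20: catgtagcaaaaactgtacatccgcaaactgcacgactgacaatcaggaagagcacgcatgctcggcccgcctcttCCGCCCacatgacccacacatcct
Gar1: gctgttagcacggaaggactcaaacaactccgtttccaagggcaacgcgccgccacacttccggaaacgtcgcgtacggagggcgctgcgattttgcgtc
Nob1: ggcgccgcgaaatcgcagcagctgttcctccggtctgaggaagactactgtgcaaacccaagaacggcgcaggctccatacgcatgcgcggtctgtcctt
Polr1b: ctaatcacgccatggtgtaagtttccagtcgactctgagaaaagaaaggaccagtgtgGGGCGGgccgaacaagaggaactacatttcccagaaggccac
Nop2: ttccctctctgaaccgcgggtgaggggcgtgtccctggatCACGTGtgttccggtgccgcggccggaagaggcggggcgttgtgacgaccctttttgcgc
Rrn3: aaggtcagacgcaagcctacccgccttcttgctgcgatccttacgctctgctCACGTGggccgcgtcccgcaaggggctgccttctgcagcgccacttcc
These stretches are at chr2:129100896-129100995, plus strand, for Polr1b, chr2:130274312-130274411, plus strand, for Nop56, and chr3:129831397-129831496, minus strand, for Gar1. Those of Gnl3 and Utp20 are at chr14:31019132-31019231, minus strand, and chr10:88826815-88826914, minus strand. Those of Nob1 and Ppan are at chr8:107425039-107425138, minus strand, and chr9:20888075-20888174, plus strand. Those of Nop2 and Rrn3 are at chr6:125131783-125131882, plus strand, and chr16:13780599-13780698, plus strand. In Nop2 and Rrn3 the E-box begins 60 and 48 bases before the start, and these genes fell by 0.77 and by 0.46 on the log2 scale. Nop2 did not pass with no filter (adjusted p = 0.056) or without vehicle replicate 1, 2 or 3 (0.078, 0.085 and 0.077). Polr1b and Utp20 each have 1 GC box in the stretch and Gnl3 has 2, while Nop56, Gar1, Nob1 and Ppan have none of the marked letters there.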

How the data were processed

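Total RNA of 6 samples was sequenced by the authors from both ends of strand-specific libraries. Per the labels and the study's methods, reads were trimmed with cutadapt 1.8.1 and fastx-toolkit, checked with FastQC, aligned to GRCm38 reference transcripts with TopHat2 2.1.1 and summarised with Cufflinks 2.2.1. The deposited values are FPKM per gene, already normalized for length and depth, and were not modelled as counts. Rows sharing a symbol were summed. Of 433 rows that join several names, 379 were tested as entries of their own, and none was counted for a listed gene except where stated. The groups were compared with limma 3.58.1 (lmFit, eBayes with trend, two-sided, R 4.3.3) on log2(FPKM + 1) for genes averaging at least 1 FPKM, with Benjamini-Hochberg adjustment and a threshold of 0.05. This scale understates changes of low genes. The fit was checked on simulated data drawn independently for each gene, so the check does not cover deviations that genes of 1 sample share. Tables and figures used Python 3.11.15, numpy 2.4.6, pandas 2.3.3 and matplotlib 3.10.9.

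With 3 mice against 3, an exact permutation test cannot go below p = 0.1. Depth was estimated from genes under 0.15 FPKM and 264 genes with a single transcript over 1500 nt. Same-numbered samples deviated together from their group means (r = 0.66, 0.21 and 0.43, all above 0.1, where other pairs ran from -0.58 to 0.34), so the replicate number was also fitted as a block. This pairing comes from the data, as the labels name no shared batch. Other alternatives were pseudocount 0.1, no filter, a limit of 5 FPKM, common total, upper quartile and median-ratio scaling, eBayes without trend, joined entries counted, the highest row kept, and each sample left out in turn.

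The members and lists were chosen with earlier results of these data known. Per-sample values are given, in each role, for the 3 members (2 in roles under 5 genes) with the largest change past the threshold, the most abundant and the least changed. They are also given for members that did not pass. Other factors named are the 5 largest falls. Nhp2l1 was added as a further box C/D core protein gene, Npm1 after its values were seen, and Zfp622 because the replicate block called it higher. Reference genes, Rpl5, Rpl11 and the marker lists were fixed by name. Some markers, and the sums that hold them, are not reported here. Exon overlaps are from GENCODE vM21 and promoters from RefSeq.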

Additional observations from a re-analysis of the deposited data

How the results depend on the processing

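The fold change of all 51 tested members stayed negative under every one of the alternatives run, and the members' median lay between -1.11 (common total) and -0.62 (without DS-5272 replicate 3). The count of lower members was 37 with no filter, when 18149 genes were tested and 13.7% were lower, 46 to 48 with most other settings (48 when the joined Imp4 and Ebna1bp2 entries were counted), 49 with a common total and 49 with the replicate block. Leaving out 1 sample at a time, it was 22 to 49, that of lower genes overall 1389 to 2432, that of higher genes 1623 to 2934, that of lower other factors 40 to 79 and of higher ones 0 to 2, and that of lower ribosomal proteins 0 to 2. Fewer samples leave fewer residual degrees of freedom. A common total gave 1709 higher genes overall. The ribosomal protein alternatives were added after seeing the data: 59 were lower with a common total, 7 with a common upper quartile, 4 with median-ratio scaling, 0 with no filter, and 20 lower and 4 higher with the replicate block. The block also called 1 other factor higher and, of the members, added Rrp9, Nmd3 and Polr1e and lost none. Of 512 alternative values for the 32 members given by sample, 465 kept their call, 34 lost it, 13 gained it and 0 reversed. The 3 members Rrp9, Nmd3 and Polr1e, where the gains lie, were added to this tally after seeing the data. Why calls moved with the scaling was not tested. Depth was estimated at 23200000 to 43100000 fragments per sample, and read counts per gene, which would give the counting error, were not used here.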
